A study of Mus musculus with 6 samples.

Results

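Igf2bp1, Igf2bp2 and Igf2bp3 encode the family of IGF2 mRNA-binding proteins, cytoplasmic proteins that hold target mRNAs in granules and protect or transport them. They are 3 of the 19616 genes with deposited counts, and all 3 were among the 15618 genes that passed the filter on low counts. They were chosen by gene symbol, with their values in the comparison of control and Hdac1/2-deleted epithelium known, so their own levels are given as a description without a test.

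RNA was sequenced from jejunal intestinal epithelial cells (IEC), which had been enriched with EDTA, of 3 control mice (C1, C3 and C3-3) and 3 Hdac1/2-deleted mice (H1, H5 and H9), with 1 library per mouse. The controls are labelled wildtype, and the Hdac1/2-deleted mice carried villin-Cre with Hdac1-/-; Hdac2-/- alleles. All mice were 3 months old, of a mixed C57BL/6J, 129SV and CD1 background. The villin promoter drives Cre in the intestinal epithelium, so other cell types of the preparation keep both genes, and whether the controls carry floxed alleles is not given in the sources used here.

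The 3 proteins share an arrangement of RNA recognition motifs followed by KH domains, and they recognise mRNAs that include the fetal growth factor transcript Igf2, for which they were named, and mRNAs marked with N6-methyladenosine. Igf2bp1 and Igf2bp3 are abundant in fetal tissues and many tumours and are largely silent in adult organs, whereas Igf2bp2 persists in adult tissues. Their mRNAs are known targets of let-7, a microRNA family that accumulates as tissues mature and is held back in the fetus by LIN28.

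The let-7 seed and its matches are shown first because they are a sequence feature that the choice of members did not use. All 8 mature mouse let-7 names in RefSeq (GRCm38.p6) carried the same seed, bases 2 to 8, which is in capitals in these 3 examples.
let-7a-5p: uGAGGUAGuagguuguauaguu
let-7d-5p: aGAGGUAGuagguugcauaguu
let-7g-5p: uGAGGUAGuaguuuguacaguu

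The complement of that seed, CTACCTC, was searched on the mRNA strand of the 3′ untranslated region (UTR) of each gene in the GENCODE release 21 annotation (GRCm38). A match followed by A is called an 8mer. Igf2bp1 had 4 matches, 3 of them 8mers, in a 3′ UTR of 6337 bases. Igf2bp2 had 1 match in 1784 bases and Igf2bp3 had 1 match in 2119 bases, both 8mers. Each site is printed with the match in capitals within 24 bases of the mRNA strand, 5′ to 3′, and all lie on the minus strand of the genome.
Igf2bp1 site 1, chr11:95961770-95961793: gaagtaaaCTACCTCAaggtgtga
Igf2bp1 site 2, chr11:95959349-95959372: gctattaaCTACCTCAgccccaga
Igf2bp1 site 3, chr11:95958755-95958778: tggatgaaCTACCTCAgtcctcac
Igf2bp1 site 4, chr11:95958132-95958155: gttttaatCTACCTCttagcaaaa
Igf2bp2 site 1, chr16:22059465-22059488: aataaaagCTACCTCAggtgtttt
Igf2bp3 site 1, chr6:49086779-49086802: ttactcaaCTACCTCAggtattca

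Of the 13417 tested genes with an annotated 3′ UTR, 10.5% held at least 1 match and 3.62% held an 8mer. Only 11 genes, 0.0820%, held 4 or more, Igf2bp1 among them. A match is a stretch of letters and not a measured site.

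Igf2bp1 (ENSMUSG00000013415) lies at chr11:95957163-96005940 with 15 annotated exons. It was almost absent from control IEC, with 1 count in C1, 0 in C3 and 4 in C3-3, or 0.0151, 0 and 0.0753 CPM, which is the count scaled to a library of 1000000. The 0 in C3, of 62311942 counts, allows a level of up to 0.0481 CPM by counting error alone, a bound taken on the library total without TMM scaling. In Hdac1/2-deleted IEC it had 257 counts in H1, 46 in H5 and 272 in H9, or 3.47, 1.21 and 4.42 CPM. Every Hdac1/2-deleted mouse stood above every control mouse, and the lowest of them, H5, was 16.1-fold above the highest control. The group means were 0.0301 ± 0.0398 and 3.03 ± 1.65 CPM (SD, n = 3 each).

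The log2 fold change of Igf2bp1 in the fit over all genes was 6.62 (SE 0.85). It rests on 5 control counts in all: summed over mice, the ratio of levels was 116, with an exact 95% interval of 49.4 to 358 that covers counting error only. Without C3-3, which held most of those control counts, the log2 fold change was 8.22, and with a larger prior count of 2 it was 5.60. Among the Hdac1/2-deleted mice the level differed 3.65-fold between H9 and H5.

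Igf2bp3 (ENSMUSG00000029814, chr6:49085223-49214957, 15 exons) was low in the controls and unequal among them, with 11, 48 and 88 counts in C1, C3 and C3-3, or 0.166, 0.864 and 1.66 CPM. The Hdac1/2-deleted mice H1, H5 and H9 had 3333, 1327 and 3229 counts, or 45.0, 34.9 and 52.5 CPM. The groups did not overlap, and the lowest Hdac1/2-deleted mouse was 21.1-fold above the highest control. The group means were 0.895 ± 0.745 and 44.1 ± 8.81 CPM, and the log2 fold change was 5.65 (SE 0.72). Without C3-3, the control with the most Igf2bp3, it was 6.46. Summed over mice, the ratio of levels was 54.1, with an exact 95% counting interval of 45.9 to 64.1.

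The 9.97-fold range of Igf2bp3 among the controls exceeded that among the Hdac1/2-deleted mice, which was 1.50-fold. Marker sums of cell types ran in different directions over the same control mice. The sum of 11 mesenchymal and smooth muscle markers fell, at 74.5 CPM in C1, 52.1 in C3 and 7.02 in C3-3. The endothelial sum also fell, from 7.75 in C1 to 5.42 in C3-3. The sums for epithelium (13586 to 15474) and interstitial cells of Cajal (18.0 to 20.6) rose from C1 to C3-3, as Igf2bp3 did. The immune sum was lowest in C1 (110) and highest in C3 (381). The neuron and glia sum was highest in C3 (5.96) and lowest in C3-3 (3.37). The part of other cell types in the Igf2bp3 values was not tested. In bulk RNA, more cells that express a gene and more RNA per cell cannot be told apart.

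Igf2bp2 (ENSMUSG00000033581, chr16:22059009-22163299, 16 exons) was the member present in control IEC, with 32.4, 36.8 and 33.0 CPM in C1, C3 and C3-3 from 2149, 2046 and 1755 counts. It reached 92.0, 102.9 and 95.1 CPM in H1, H5 and H9 from 6817, 3909 and 5851 counts. The groups were narrow and did not overlap. The coefficient of variation was 6.998% in the controls and 5.81% in the Hdac1/2-deleted mice, and the lowest Hdac1/2-deleted mouse was 2.50-fold above the highest control. The means were 34.1 ± 2.39 and 96.7 ± 5.61 CPM, with a log2 fold change of 1.50 (SE 0.13). Scaled by library totals alone, which moved the median of all genes by 0.19, it was 1.69. H5 was the lowest Hdac1/2-deleted mouse for Igf2bp1 and Igf2bp3 but the highest for Igf2bp2.

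**Figure D1:**
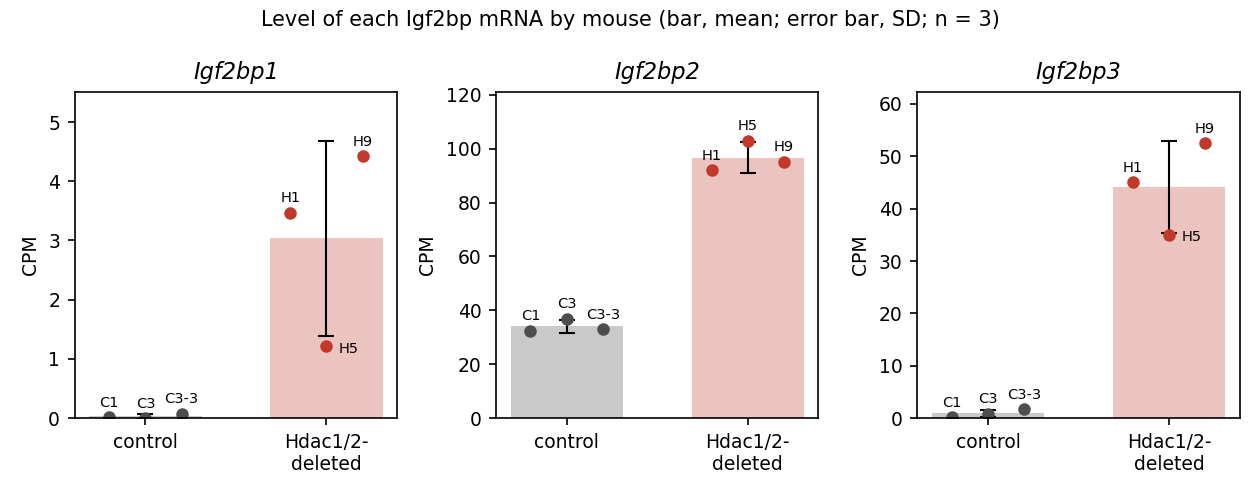
CPM of Igf2bp1, Igf2bp2 and Igf2bp3 (3 panels, linear axes from 0, each with its own scale) in the control mice C1, C3 and C3-3 and the Hdac1/2-deleted mice H1, H5 and H9. Points are mice, bars are means and error bars are SD (n = 3), and in each panel every Hdac1/2-deleted mouse lies above every control mouse.

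Over all genes tested, 12.4% were increased and 12.7% decreased, which here means an adjusted p of at most 0.05 by edgeR's quasi-likelihood test with a change of at least 2-fold, and in 26.7% of genes every Hdac1/2-deleted mouse stood above every control mouse (53.2% had no overlap in either direction). The members stand inside those shares by their choice, and nothing is read from that. Ordered by log2 fold change from the highest, Igf2bp1 was in place 106, Igf2bp3 in place 150 and Igf2bp2 in place 1378 of 15618 genes.

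Levels of the 3 mRNAs were compared with one another only per length, as CPM per kb of annotated exon (9.68 kb for Igf2bp1, 7.40 kb for Igf2bp2 and 8.16 kb for Igf2bp3). In control IEC the order was Igf2bp2 at 4.61 ± 0.322, Igf2bp3 at 0.110 ± 0.0914 and Igf2bp1 at 0.00311 ± 0.00411 CPM per kb. Each control mouse had this order. In Hdac1/2-deleted IEC the order stayed the same in each mouse, at 13.1 ± 0.758, 5.41 ± 1.08 and 0.313 ± 0.170 CPM per kb.

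Among the genes tested, Igf2bp1 moved on this per-length scale from above 0.482% of them to above 20.1%, Igf2bp3 from above 10.1% to above 63.5%, and Igf2bp2 from above 61.4% to above 78.8%. Igf2bp1 thus remained in the lower part of the range even in Hdac1/2-deleted IEC.

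The family total per length was 4.72 ± 0.341 CPM per kb in the controls and 18.8 ± 0.827 in the Hdac1/2-deleted mice, a ratio of 3.98. Igf2bp2 supplied 97.6 ± 2.02% of the control total and 69.6 ± 5.62% of the Hdac1/2-deleted total. Igf2bp3 supplied 2.30 ± 1.95% and 28.7 ± 4.77%, and Igf2bp1 0.0673 ± 0.0877% and 1.65 ± 0.857%. The make-up of the family therefore differed between the groups chiefly by its Igf2bp3 share, while Igf2bp2 stayed the largest component in all 6 mice. Leaving out C3-3 or C1 moved the control share of Igf2bp3 to 1.27% or 3.21%, and leaving out C3-3 moved that of Igf2bp1 to 0.0177%.

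**Figure D2:**
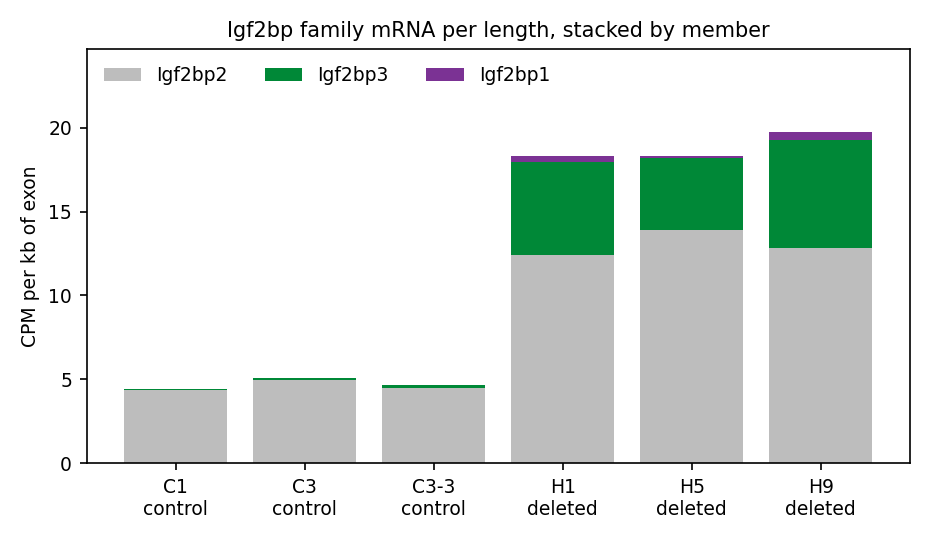
Stacked bars of CPM per kb of exon (vertical axis, from 0) for Igf2bp2, Igf2bp3 and Igf2bp1 in each of the 6 mice. The control bars are almost wholly Igf2bp2, and the Hdac1/2-deleted bars add a visible Igf2bp3 part and a thin Igf2bp1 part on a taller Igf2bp2 base.

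The transcripts could be told apart from one another. No window of 100 bases of the longest annotated coding transcript of Igf2bp1 (8279 windows) or Igf2bp2 (3800 windows) occurred in a transcript of another gene. For Igf2bp3, 33.7% of 4246 windows also lay in Malsu1, a gene for a mitochondrial ribosome assembly factor, whose annotated bounds overlap Igf2bp3 by 1529 bases on the opposite strand. The libraries were made with a strand-marking kit, but the strand setting of the counting is not given in the sources used here. Malsu1 itself had 11.8 ± 0.658 CPM in the controls and 11.4 ± 0.836 in the Hdac1/2-deleted mice (log2 fold change −0.05, SE 0.17, adjusted p = 0.84 by edgeR's quasi-likelihood test), a value that does not move with Igf2bp3 and whose sign depends on the scaling (0.14 by library totals). The 5′ end of Igf2bp1 overlaps the antisense gene Gm29202 by 52 bases, which was not analysed here.

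The promoter windows, 250 bases before to 50 after the start, are shown for Igf2bp2 and Igf2bp3 because no window was found for Igf2bp1. CpG dinucleotides are in capitals, on the gene's strand, from RefSeq (GRCm38.p6), where 2 of the 3 members matched.
Igf2bp2, chr16:22163250-22163549, minus strand: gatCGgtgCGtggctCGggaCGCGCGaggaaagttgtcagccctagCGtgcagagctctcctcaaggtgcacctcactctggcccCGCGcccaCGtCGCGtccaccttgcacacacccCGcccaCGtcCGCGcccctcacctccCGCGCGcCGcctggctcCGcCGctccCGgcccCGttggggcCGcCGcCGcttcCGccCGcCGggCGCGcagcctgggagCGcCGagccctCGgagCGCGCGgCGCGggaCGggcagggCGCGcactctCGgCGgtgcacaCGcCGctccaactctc
Igf2bp3, chr6:49214905-49215204, minus strand: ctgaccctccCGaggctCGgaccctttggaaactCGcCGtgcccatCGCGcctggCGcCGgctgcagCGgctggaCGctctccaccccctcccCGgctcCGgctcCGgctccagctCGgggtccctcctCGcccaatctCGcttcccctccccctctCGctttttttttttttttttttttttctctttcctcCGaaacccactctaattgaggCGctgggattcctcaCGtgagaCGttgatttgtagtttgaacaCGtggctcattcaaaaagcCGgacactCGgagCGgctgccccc

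The Igf2bp2 window held 47 CpG and 76.7% G or C, more CpG than 98.6% of 32851 promoter windows. The Igf2bp3 window held 25 CpG and 60.3% G or C, more CpG than 81.6% of them, and also a long run of T. The median window had 7 CpG. The GC box GGGCGG, searched on both strands, occurred 2 times in the Igf2bp2 window and 0 times in the Igf2bp3 window, against 35.7% of all windows with at least 1. The E-box CACGTG, which reads the same on both strands, occurred 0 and 2 times, against 7.15% of all windows with at least 1. These are letter matches and say nothing of a bound factor.

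The number of let-7 matches was set beside the fold changes of all tested genes with a 3′ UTR. Of the 12008 genes with no match, 12.9% were increased and 13.3% decreased around a median of −0.01 on the log2 scale. Of the 1237 genes with 1 match, Igf2bp2 and Igf2bp3 among them, 15.4% were increased and 11.2% decreased (median 0.02). Of the 147 with 2 matches, 15.0% were increased and 11.6% decreased (median 0.08). Carrying 1 or 2 matches thus went with shares near those of all genes.

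Of the 25 genes with 3 or more matches, 7 were increased and 0 decreased, and the median was 0.42. Without Igf2bp1, 6 of 24 (25%) were increased, against 13.2% of the tested genes with a 3′ UTR and 12.4% of all genes tested. The 3′ UTRs of these genes were long, with a median of 4453 bases against 1113 over all genes, and the part of that length was not tested. Chosen here after their values were seen, the other increased genes of this class were Trim71, Hic2, Trim6, Fignl2, Zfp512b and Tmem198b, with 3 to 6 matches. Genes with more matches than Igf2bp1 did not all follow it, and 2 chosen in the same way show this: Nr6a1 with 8 matches had a log2 fold change of −0.10 (SE 0.17) and Mcf2l with 7 had −0.12 (SE 0.23).

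**Figure D3:**
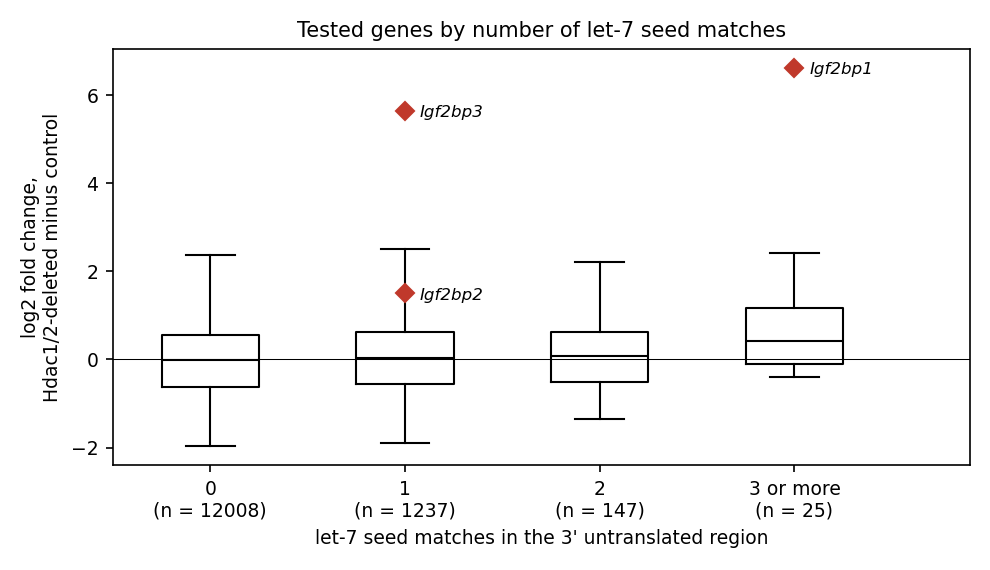
Log2 fold change (vertical axis, Hdac1/2-deleted minus control) of tested genes by number of let-7 seed matches in the 3′ UTR. Boxes span the quartiles with the median as a line, whiskers reach the 5th and 95th percentiles, and diamonds mark Igf2bp1 in the class of 3 or more and Igf2bp2 and Igf2bp3 in the class of 1. The boxes for 0, 1 and 2 matches centre on 0, and that for 3 or more lies higher with only 25 genes.

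Around this feature, the list of let-7 and LIN28 axis genes showed changes in both directions. In all, 3 were increased and 4 decreased of 14 that were tested, against 12.4% and 12.7% of all genes, and the median was −0.22 on the log2 scale against −0.01 over all genes. Trim71, a let-7 target and stem cell E3 ligase with 4 matches, had 0 counts in every control and 18 to 36 counts in the Hdac1/2-deleted mice, at least 10.6-fold higher against 3 counts per library. Hmga1, an architectural chromatin protein with 1 match, rose by a log2 fold change of 2.16 (SE 0.22, adjusted p = 1.3e-04, edgeR), and Arid3a, a transcription factor with 2 matches, by 1.62 (SE 0.16). Lin28a and Lin28b were not analysed here.

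The decreased genes of that list included enzymes that act on let-7 or its precursors. Zcchc11, also known as Tut4, which uridylates pre-let-7, fell by 1.60 on the log2 scale (SE 0.29, adjusted p = 0.0026, edgeR), and Dis3l2, the nuclease that degrades uridylated pre-let-7, fell by 1.34 (SE 0.23). Mycn, a let-7 target without a match in the annotated 3′ UTR used here, fell by 2.08 (SE 0.43). Drosha, the nuclease of microRNA processing, had a log2 fold change of −0.08 (SE 0.17, adjusted p = 0.73, edgeR). Hmga2, an architectural chromatin protein with 4 matches that is named after its values were seen, had 0.95 (SE 0.46, adjusted p = 0.13). These poly(A) libraries do not measure mature let-7.

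The clients are mRNAs that IGF2BP proteins are reported to bind. Of 23 tested, 3 were increased (13.0%) and 0 decreased, against 12.4% and 12.7% of all genes. An unadjusted p under 0.05 (edgeR) was reached by 12. The share of all genes at that limit is not given here, so the 12 are not placed against it. The stricter adjusted p of at most 0.05 was passed by 40.8% of all genes. DESeq2 also called 0 decreased. The median log2 fold change was 0.45. The increased genes were Igf2, the fetal growth factor, H19, the noncoding RNA of the same imprinted locus, and Gli1, the transcription factor of the Hedgehog pathway.

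Igf2 went from 3.43 ± 0.707 to 1376 ± 497 CPM (log2 fold change 8.65, SE 0.40) and H19 from 5.46 ± 3.63 to 4141 ± 526 CPM (9.57, SE 0.60, and 10.3 without C3-3). Gli1 had 5, 0 and 1 counts in C1, C3 and C3-3 and 11 to 15 in the Hdac1/2-deleted mice, a ratio of 6.21 with an exact 95% counting interval of 2.60 to 18.0, and its call was lost without C3, C3-3, H1, H5 or H9 (adjusted p of 0.052 to 0.11, edgeR). Its fitted log2 fold change of 2.72 was 4.36 without C1, which held 5 of its 6 control counts. Without C1 the increased clients numbered 6, and without C3, C3-3, H1 or H5 they numbered 2.

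In the ligand, receptor and binding protein list of the IGF pathway, 5 of 15 tested members were increased and 3 decreased, against 12.4% and 12.7% of all genes, around a median of −0.33 on the log2 scale. Besides the ligand Igf2, the increased genes were the binding proteins Igfbp4 (log2 fold change 2.89, SE 0.27) and Igfbp2, the subunit Igfals that holds circulating IGF in a complex, and the adaptor Irs1 (log2 fold change 1.65, SE 0.36). Igfbp2 had 14 counts over the controls and 225 over the Hdac1/2-deleted mice, a ratio of 16.2 (9.45 to 30.1), and Igfals had 17 and 669, a ratio of 39.7 (24.6 to 68.5). Both intervals are exact, at 95%, and cover counting error only. The fitted log2 fold changes were 4.16 for Igfbp2, or 5.20 without C1, and 5.26 for Igfals, or 6.26 without C3-3.

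The insulin receptor Insr fell by 1.05 on the log2 scale (SE 0.16, adjusted p = 0.0011, edgeR) but was under the 2-fold limit without C1 or H1 and by library totals. The other decreased genes, named after their values were seen, were the binding proteins Igfbp3 and Igfbp5. Igfbp3 had a log2 fold change of −1.83 (SE 0.64, adjusted p = 0.048, edgeR), with overlapping groups, and Igfbp5 had −1.22 (SE 0.36, adjusted p = 0.025). Igfbp6 (−0.89) and Igfbp7 (−1.79) were not called, so the binding proteins changed in both directions. The IGF receptor Igf1r had −0.07 (SE 0.34), or 0.10 by library totals. The number of decreased genes fell to 0 without C1 or H1 and to 1 without C3, H5 or H9. Igf1, the other ligand, was below the filter with 8 control and 10 Hdac1/2-deleted counts.

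Neither the granule partners of IGF2BP proteins nor the m6A machinery contributed a gene past both limits. Of 24 tested partners, 0 were called in either direction by edgeR or DESeq2, against 12.4% increased and 12.7% decreased of all genes by edgeR. An unadjusted p under 0.05 (edgeR) was reached by 5, where 40.8% of all genes passed even the adjusted p of at most 0.05. The log2 fold changes had a median of 0.16. Without H5, 1 partner was increased. Under the adjusted p alone, by which 20.5% of all genes were higher and 20.3% lower, and named after their values were seen, Pcbp1 (log2 fold change 0.59), Fubp3 (0.89) and Ybx1 (0.57) were higher and Ddx6 (−0.41) and Pcbp2 (−0.40) lower. Ybx1, the Y-box protein found in the same granules, went from 461 ± 24.9 to 685 ± 112 CPM. The stress granule protein Caprin1 had a log2 fold change of −0.01 (SE 0.16), whose sign turned under other scalings.

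Of 19 genes for writers, erasers and YTH readers of m6A, 0 were called in either direction by edgeR or DESeq2. By edgeR, 12.4% of all genes were increased and 12.7% decreased. An unadjusted p under 0.05 (edgeR) was reached by 6, where 40.8% of all genes passed even the adjusted p of at most 0.05. The median log2 fold change was −0.09. The reader Ythdf3 had 0.02 (SE 0.14). Under the adjusted p alone, again named after their values were seen, Prrc2a (log2 fold change 0.74), Mettl16 (0.84) and 1110037F02Rik, the symbol used for Virma (0.38), were higher and Wtap (−0.43) was lower. The 3 Igf2bp genes are themselves readers, but they were chosen with their values known, so their changes are not compared with these.

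Of 14 tested fetal intestinal and oncofetal genes, 9 were increased and 2 decreased, against 12.4% and 12.7% of all genes, and the median was 1.31 on the log2 scale. This share of increased genes was the highest of the 7 lists, but the list was written with earlier results of these data known, so nothing is read from that. The decreased genes, named after their values were seen, were Spp1 (−2.09, SE 0.68) and Epha4 (−1.31, SE 0.40). The increased count was 6 to 9 with any 1 mouse left out, and the decreased count was 0 or 1. Beside Igf2 and H19, the zinc finger gene Plagl1 rose by 4.49 on the log2 scale (SE 0.53) and the Notch-related Dlk1 by 4.60 (SE 0.52), both imprinted. The stem cell factor Sall4 had 0, 0 and 3 counts in C1, C3 and C3-3 and 24 to 52 in the Hdac1/2-deleted mice, a ratio of 38.3 with an exact 95% counting interval of 12.8 to 188, and its fitted log2 fold change of 5.19 was 8.41 without C3-3 and 4.59 without C1. The imprinted noncoding Meg3 had 3.15 (SE 0.77), or 3.84 without C3 and 2.25 without H9.

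Afp, the fetal plasma protein gene that is often measured beside these, had 0.08 (SE 0.15, adjusted p = 0.70, edgeR), so the fetal and oncofetal genes did not move as one. Sox11 was not analysed here.

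Crypt stem cells and their dividing progeny renew the epithelium, and their marker genes were read from the same fit. Of 16 tested, 1 was increased and 3 decreased, against 12.4% and 12.7% of all genes, and the median was 0.03 on the log2 scale. The stem cell markers Olfm4 and Lgr5 fell by 1.58 on the log2 scale (SE 0.28) and 1.54 (SE 0.33), and Rnf43, a negative regulator of Wnt signalling, fell by 1.03 (SE 0.23), under the 2-fold limit without C3, C3-3 or H5 and by library totals. Mcm2, a replication licensing factor, rose by 1.02 (SE 0.25), under the limit without C3, C3-3, H1 or H5. The proliferation gene Top2a had −0.12 (SE 0.32), and 0.06 by library totals.

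**Figure D4:**
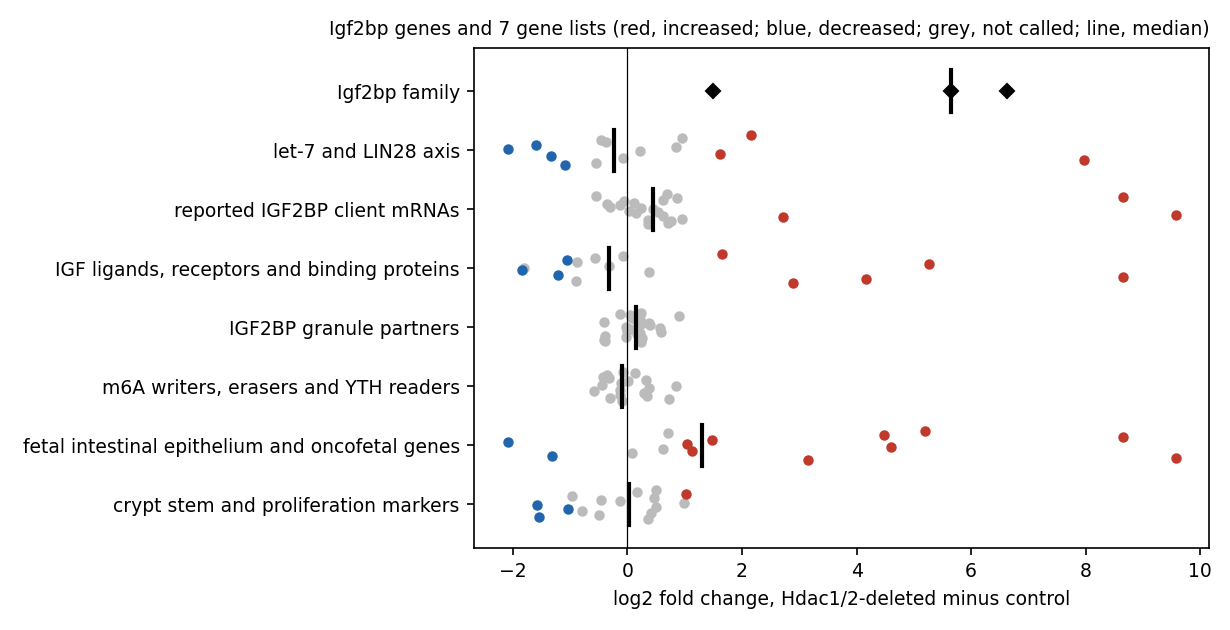
Log2 fold change (horizontal axis, Hdac1/2-deleted minus control) of the 3 Igf2bp genes (black diamonds) and of the tested genes of 7 lists. Red points are increased, blue decreased and grey not called, and vertical lines are medians. Igf2bp1 and Igf2bp3 lie to the right of nearly all genes of the let-7, granule and m6A lists. The 3 members were chosen with their values known, so nothing is read from that place. The fitted values of genes with few control counts, such as Trim71, depend on the prior count.

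Position in the genome was not used to choose the members, and their neighbours were therefore read from the same fit. Of the 30 nearest tested genes, 5 on each side of each member, 4 were increased and 3 decreased, where 13.3% increased stands against 12.4% of all genes, and they had a median of 0.04 on the log2 scale. With 10 on each side, 15 of 60 (25%) were increased and 4 (6.67%) decreased, against 12.4% and 12.7% of all genes.

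Around Igf2bp1, 0 of 10 neighbours were increased and 1 decreased. Gip, the gene of the incretin hormone made by K cells, begins 18.6 kb upstream of Igf2bp1 and fell by 1.27 on the log2 scale (SE 0.17, adjusted p = 4.7e-04, edgeR), from 199 ± 32.1 to 82.2 ± 10.7 CPM. The nearest increased genes on that side, named after their values were seen, were in the Hoxb cluster, 266 kb or more away. Hoxb9 had 0 counts in every control and 12 to 27 in the Hdac1/2-deleted mice, and Hoxb8 rose by 3.39 (SE 0.53), whereas Hoxb7 had −0.14 (SE 0.52). Under the 2-fold limit, and named after their values were seen, Gngt2 (3.41 ± 0.578 to 6.51 ± 2.55 CPM, adjusted p = 0.045, edgeR) and Atp5g1 (282 ± 8.75 to 401 ± 23.9 CPM, adjusted p = 0.015) were higher in every Hdac1/2-deleted mouse.

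Around Igf2bp2, 2 of 10 neighbours were increased and 0 decreased. Etv5, a transcription factor gene 218 kb upstream, rose by 2.10 (SE 0.33, adjusted p = 0.0011, edgeR). The noncoding Gm15651 had 1 count over the controls and 13 to 25 in each Hdac1/2-deleted mouse. The tested genes between Igf2bp2 and Etv5 were not called. Downstream, and named after their values were seen, Liph, Map3k13 and 1300002E11Rik were lower in every Hdac1/2-deleted mouse, under the 2-fold limit. Their log2 fold changes were −0.55, −0.67 and −0.68 (adjusted p = 0.019, 0.0078 and 0.016, edgeR). Dgkg, upstream, was also lower in every Hdac1/2-deleted mouse (−0.81, adjusted p = 0.11, edgeR).

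Around Igf2bp3, 2 of 10 neighbours were increased and 2 decreased. Gpnmb, a membrane glycoprotein gene 14.3 kb downstream, went from 0.235 ± 0.00912 to 0.735 ± 0.262 CPM (log2 fold change 1.63, SE 0.43, adjusted p = 0.014, and 0.067 without H9, edgeR). Tmem176a, a membrane protein gene, rose by 1.77 (SE 0.19). Aoc1, the diamine oxidase gene of mature enterocytes, fell by 1.93 (SE 0.23), and Ccdc126 by 2.14 (SE 0.48), or 2.72 without H1. Increases and decreases were thus interleaved around Igf2bp3.

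**Figure D5:**
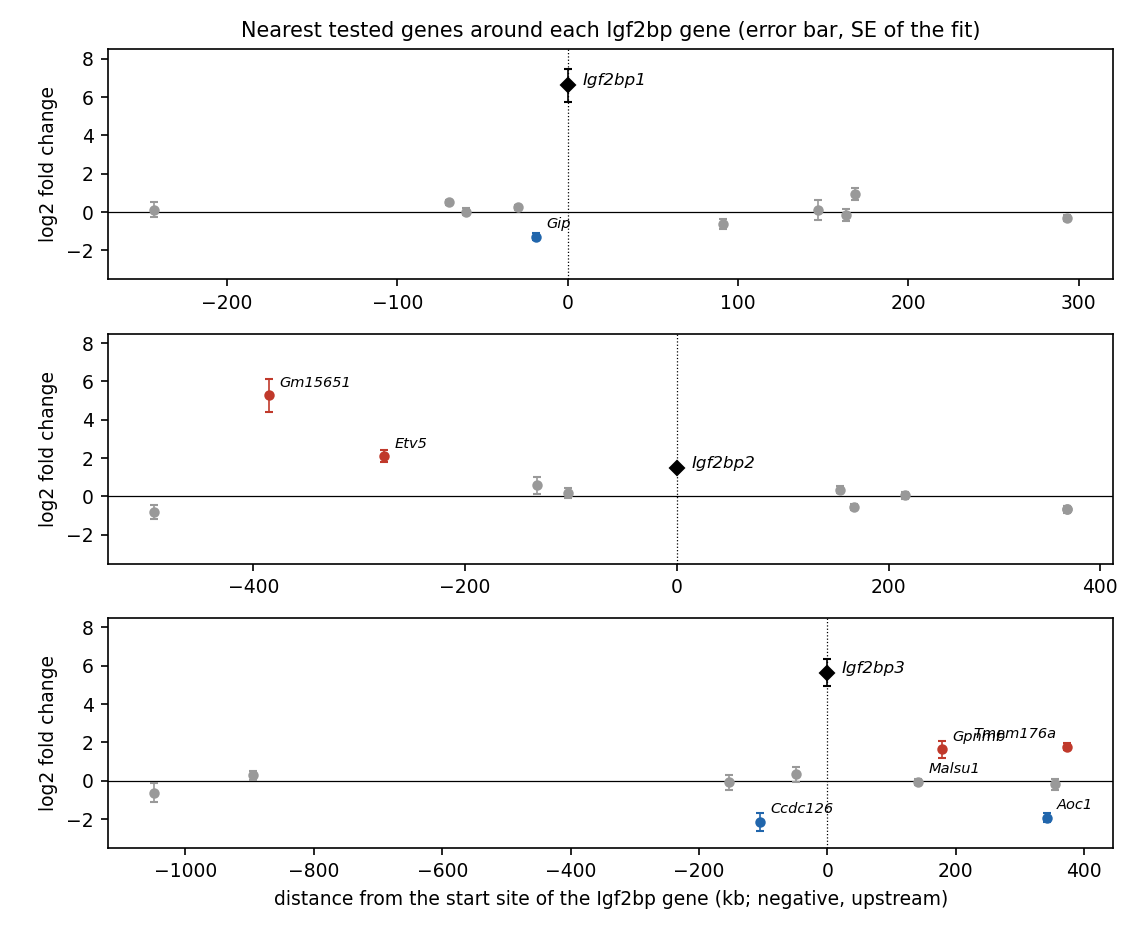
Log2 fold change (vertical axis, Hdac1/2-deleted minus control, error bars SE) of each Igf2bp gene (black diamond) and its 10 nearest tested genes against the distance between start sites in kb (horizontal axis, negative upstream), 1 panel per member. Red points are increased, blue decreased and grey not called. No neighbour of Igf2bp1 is increased past the 2-fold limit, while Etv5 and Gm15651 upstream of Igf2bp2 and Gpnmb and Tmem176a downstream of Igf2bp3 are increased.

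The genes whose profile over the 6 mice was most like each member were ranked by the root mean square difference of log2 CPM centred on each gene's mean. For Igf2bp2 the likest were Aars2, the mitochondrial alanyl-tRNA synthetase gene, at 0.0495, Aldh5a1, of GABA breakdown, at 0.0694, and then Itpr3, Gimap1 and Dcaf4 at 0.0766 to 0.0772. For Igf2bp1 they were Ighv3-1 (0.319), Xlr5c (0.370), Tnfaip2 (0.437), Hc (0.446) and Grk1 (0.453), of which all but Tnfaip2 were at or under 0.0753 CPM, the highest control value of Igf2bp1, in every control. For Igf2bp3 they were 9130204K15Rik (0.536), Cyp2d34 (0.575), Fhl3 (0.575), A830052D11Rik (0.579) and Hsf2bp (0.585). Within the family Igf2bp1 and Igf2bp3 were nearest to each other, at 0.923, against 2.18 between Igf2bp1 and Igf2bp2 and 2.44 between Igf2bp2 and Igf2bp3. These values describe likeness over 6 mice of 2 groups, and a ranking by Pearson's r shared 0, 1 and 0 of the 5 genes for Igf2bp1, Igf2bp2 and Igf2bp3.

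The libraries held 36111035 (H5) to 65902344 (C1) counts. Hdac1 fell from 40.8 ± 7.33 to 3.77 ± 1.16 CPM (log2 fold change −3.43, SE 0.26, adjusted p = 2.9e-05, edgeR), and Hdac2 had 27.7 ± 4.72 and 24.5 ± 2.70 CPM (−0.18, SE 0.17, adjusted p = 0.44). Counts are per gene and reads per exon were not examined, so the Hdac2 level does not check the deletion. The cause of that level was not tested. The summed level of 8 epithelial markers was 13586 to 15474 CPM in the controls and 10728 to 13246 in the Hdac1/2-deleted mice. The sum of 12 immune markers was 110 to 381 and 65.5 to 127 CPM, of 5 endothelial markers 5.42 to 7.75 and 9.60 to 10.9, of 6 neuron and glia markers 3.37 to 5.96 and 8.76 to 11.1, and of 3 markers of interstitial cells of Cajal 18.0 to 20.6 and 13.2 to 15.6. That of the mesenchymal and smooth muscle markers was 7.02 to 74.5 and 12.9 to 22.0 CPM, with Myh11 at 1680, 700 and 24 counts in C1, C3 and C3-3 and at 1, 0 and 0 in H1, H5 and H9. Within that list Pdgfrb, a pericyte and fibroblast receptor, went the other way, from 1.62 ± 0.829 to 13.0 ± 5.52 CPM (log2 fold change 3.00, SE 0.45, adjusted p = 0.0010, edgeR), and supplied most of the Hdac1/2-deleted sum. Of the neuron and glia markers, Sox10, which defines enteric glia, had 9, 2 and 0 counts in C1, C3 and C3-3 and 0 in every Hdac1/2-deleted mouse, whereas S100b, Tubb3 and Ret were higher in every Hdac1/2-deleted mouse than in any control. Members of the other sums differed too, and Lyve1 and Kit are named after their values were seen. In the immune list Csf1r rose by 1.75 on the log2 scale (SE 0.32), whereas Cd3g (−1.68, SE 0.51) and Cd8a (−1.32, SE 0.41) fell. Lyve1, at 4.84 ± 0.720 and 7.88 ± 0.165 CPM, supplied most of the endothelial sum, and Cdh5 had −0.30 (SE 0.84). Of the Cajal markers Ano1 rose by 1.13 (SE 0.33) and Kit had −0.71 (SE 0.20). The part of these cell types in the Igf2bp values was not tested.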

How the data were processed

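RNA-Seq libraries came from EDTA-enriched jejunal IEC, 1 per mouse. The authors aligned reads with STAR (2.4.0f1 in the submitters' processing notes) and deposited raw counts per gene. The study's methods name GRCm38 and the processing notes mm9, so coordinates are those of GENCODE release 21 (GRCm38), joined by gene identifier, which holds 19526 deposited genes. The counting program and its strand setting are not given in the sources used here. The deposited table also holds a score per sample, the counts multiplied by 1 factor per sample by the authors and rounded, which was not used. Its columns of fold changes, mean log CPM and p-values of the authors' own comparison were not used either. No listed gene has fewer than 10 counts over the 6 mice.

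Counts were filtered with filterByExpr, scaled with TMM (factors 0.892 to 1.14) and fitted with edgeR 4.0.16 (robust quasi-likelihood, prior count 0.125, no covariates) in R 4.3.3. Benjamini-Hochberg adjustment ran over all 15618 genes. A call needed an adjusted p no higher than 0.05 together with a 2-fold change or more, the limits in the study's methods. CPM is the count scaled to a library of 1000000, with TMM. The SE was taken as |log2 fold change| over the root of F. DESeq2 1.42.0 served as an alternative. Both were tested on simulated counts. Counting intervals are exact (Clopper-Pearson), cover counting error only, and a count of 0 was bounded at 3 counts. A 3′ UTR is the longest annotated for the gene. The groups are separate mice, so p-values set the group difference against the spread among the 3 mice of each group. That spread was moderated over all genes in the fit.

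The members and the gene lists were chosen with earlier results of these data known. The genes named were the members, Hdac1 and Hdac2, of each list the called genes (or the 6 of smallest adjusted p) and the 1 of smallest change (for the clients it is not reported here), the 5 likest genes per member and the neighbours that were called or overlapped a member. Others are marked in the text.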

Additional observations from a re-analysis of the deposited data

How the results depend on the processing

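No paired analysis was possible because the groups share fewer than 2 replicate numbers. With any 1 mouse left out, 1841 to 2109 genes were increased and 1790 to 2012 decreased, and the log2 fold changes were 6.09 to 8.22 for Igf2bp1, 1.46 to 1.57 for Igf2bp2 and 5.14 to 6.46 for Igf2bp3. Igf2bp1 gave no value when at least 10 counts were required in every sample, because it was then filtered out. A prior count of 2 gave 5.60 for Igf2bp1, and scaling by library totals gave 1.69 for Igf2bp2. Every Igf2bp value kept its direction under each alternative that gave one. Of 45 called genes in the lists, neighbours, likest genes and HDAC genes, 40 kept their call in every setting that gave a value, and the 5 others were Mcm2, Insr, Gli1, Gpnmb and Rnf43. The depth limits Igf2bp1 most, through its 5 control counts.

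Without the fold limit, 3198 genes were higher and 3168 lower. That gave 7 increased and 1 decreased client, 3 and 2 granule partners, 3 and 1 genes of the m6A list, and 3 increased crypt genes. Scaling by library totals gave 0 decreased genes in the IGF list, 1 increased granule partner, 1 increased gene of the m6A list, 1 decreased fetal gene and 2 increased crypt genes. RLE size factors and DESeq2 gave 2 increased crypt genes each, and DESeq2 1 decreased fetal gene. Without the filter on low counts, 1 granule partner was increased. Requiring 10 counts in every sample gave 3 increased genes of 12 tested in the IGF list, 5 increased and 0 decreased of 7 tested in the fetal list, and 2 increased crypt genes. With 10 neighbours on each side, 15 of 60 (25%) were increased. The cause of these differences was not tested where fewer genes or the limit itself do not account for them.

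With any 1 mouse left out, the let-7 list had 3 to 4 increased and 3 to 4 decreased genes, the clients 2 to 6 and 0, the IGF list 5 and 0 to 4, the granule partners 0 to 1 and 0, the m6A list 0 and 0, the fetal list 6 to 9 and 0 to 1, and the crypt list 0 to 2 and 2 to 4. The family share of Igf2bp2 was 96.7% to 98.7% in the controls and 66.5% to 71.9% in the Hdac1/2-deleted mice, that of Igf2bp3 1.27% to 3.21% and 26.8% to 31.4%, and that of Igf2bp1 0.0177% to 0.101% and 1.32% to 2.14%.

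Signs near 0 turned for genes that were not called. By library totals the log2 fold change was 0.10 for Igf1r, 0.0069 for Hdac2, 0.0577 for Top2a, 0.10 for Drosha, 0.18 for Caprin1 and 0.14 for Malsu1, and for Caprin1 it was 0.0045 with RLE size factors, 0.0044 with DESeq2 and 0.0058 when 10 counts were required in every sample. With 1 mouse left out it ranged from −0.31 to 0.18 for Igf1r, −0.33 to 0.23 for Top2a, −0.26 to 0.058 for Drosha, −0.10 to 0.10 for Caprin1, −0.082 to 0.017 for Malsu1 and −0.080 to 0.091 for Ythdf3.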

Other observations

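Annotated transcripts that contain let-7 hairpins on the same strand were read as values outside the comparisons. Wdr82, which overlaps Mirlet7g, had 53.8 ± 9.18 CPM in the controls and 45.7 ± 8.35 in the Hdac1/2-deleted mice (log2 fold change −0.23, SE 0.18). 6720427I07Rik, the transcript over Mirlet7d, Mirlet7f-1 and Mirlet7a-1, had 0.305 ± 0.199 and 0.168 ± 0.0888 CPM (−0.81, SE 0.67). Spaca6, over Mirlet7e, had 0.119 ± 0.0559 and 0.223 ± 0.0746 CPM (0.90, SE 0.55). Huwe1, a ubiquitin ligase gene over Mirlet7f-2, had 164 ± 3.42 and 216 ± 19.1 CPM (0.40, SE 0.13, adjusted p = 0.037, edgeR). None of the 4 passed the adjusted p and 2-fold limits together. Below the filter, with counts in C1, C3 and C3-3 and then in H1, H5 and H9, were Mir99ahg, Mirlet7b and Mirlet7c-2. Mir99ahg, over Mirlet7c-1, had 0, 0 and 0 and then 11, 4 and 0. Mirlet7b had 7, 5 and 2 and then 3, 1 and 1, and Mirlet7c-2 had 2, 9 and 6 and then 3, 0 and 3. All of these were chosen by position, and mature let-7 was not measured.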
